A study of Mus musculus with 24 samples.

Results

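The enzyme genes that build serine, mitochondrial one-carbon units, proline, asparagine and alanine were followed through endoplasmic reticulum (ER) stress in MIN6 cells, an insulin-secreting line from a mouse insulinoma. The 10 members are the rows of the count table with the symbols Phgdh, Psat1, Psph, Shmt2, Mthfd2, Mthfd1l, Aldh18a1, Pycr1, Asns and Gpt2. They are 10 of 24421 genes in the table, and all 10 were among the 13761 genes with enough counts to be tested. As a control, cells carried a plasmid expressing GFP, and the test cells one expressing an EIF2A-GFP fusion. Each received the vehicle DMSO, written here as 0 h, or 1 µM thapsigargin for 1 or 3 h, and all were grown in medium with 22.2 mM glucose. The 6 groups, GFP and EIF2A at each time, have 4 libraries each and 24 together. The GFP and EIF2A groups differ only in the plasmid insert as labelled, every group is the same cell line, and the labels do not say what share of the cells took up a plasmid.

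Thapsigargin blocks the calcium pump of the ER, which disturbs protein folding there and activates the kinase PERK. PERK phosphorylates the initiation factor eIF2α, general translation falls, and translation of the transcription factor ATF4 increases, a sequence called the integrated stress response. ATF4 is known to switch on genes of amino acid supply, and most of the enzymes described here are counted among its targets in other cells. Serine is made from a glycolytic intermediate by PHGDH, PSAT1 and PSPH in turn, SHMT2 splits it into glycine and a one-carbon unit in mitochondria, and MTHFD2 and MTHFD1L carry that unit on to formate for purine synthesis. ALDH18A1 and PYCR1 turn glutamate into proline, ASNS makes asparagine from aspartate and glutamine, and GPT2 exchanges an amino group between glutamate and alanine. EIF2A is a separate protein, not a subunit of eIF2, and is known for delivering initiator tRNA on some messages.

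Since ATF4 acts through short DNA elements, the sequence before the start of each gene was searched in the RefSeq promoter table for GRCm38.p6, where all 10 members were found. Each window holds 300 bases, 250 before the start and 50 after it, and was read on both strands. The composite element bound by ATF4 with C/EBP partners, searched as TGATGNAA, was in the windows of 2 of 10 members, Asns and Pycr1. It was in 3.97% of all 32851 windows of this length and, counted by gene, in 4.51% of 27025 genes. The cAMP response element TGACGTCA was in none of the 10, in 1.79% of all windows and in 2.03% of genes. The ER stress element was in none of the 10, in 0.119% of all windows and in 0.137% of genes. No match overlapped another motif, and no match says only that these letters are not in this window. All 250 bases before the Psph start are exonic in GENCODE. For Psat1 the RefSeq starts searched were 15925059 and 15924622, while GENCODE places the outermost start at 15947337. For Mthfd2 they were 83317604 and 83325908. Sequence before those outer starts was not searched. The 28 bases around each match are shown because they are the only matches, with the element in capitals. The Asns match, in the stretch at chr6:7693215-7693242 on the minus strand, starts 23 bases before the RefSeq start at 7693209. GENCODE places the start of Asns further out, at 7693254, so by that annotation the stretch is exonic. The Pycr1 match, in the stretch at chr11:120643834-120643861 on the minus strand, starts 103 bases before the RefSeq start at 120643748, and it lies before the GENCODE start at 120643769 too.
Asns: cccagccacaTGATGAAActtcccgcac
Pycr1: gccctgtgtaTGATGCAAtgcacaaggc

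The stretch before Gpt2 is shown because Gpt2 had the largest response of the 10 at 3 h and its window holds none of the 3 elements. That before Pycr1, the member with the smallest response, is shown for comparison. These are 250 bases at chr8:85492326-85492575 on the plus strand and 229 bases at chr11:120643770-120643998 on the minus strand, written 5′ to 3′, with the element of Pycr1 in capitals.
Gpt2: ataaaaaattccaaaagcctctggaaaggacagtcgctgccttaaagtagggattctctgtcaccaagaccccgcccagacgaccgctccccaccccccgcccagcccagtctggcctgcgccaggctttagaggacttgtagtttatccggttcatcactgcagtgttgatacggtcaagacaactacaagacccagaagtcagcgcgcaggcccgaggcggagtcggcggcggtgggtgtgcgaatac
Pycr1: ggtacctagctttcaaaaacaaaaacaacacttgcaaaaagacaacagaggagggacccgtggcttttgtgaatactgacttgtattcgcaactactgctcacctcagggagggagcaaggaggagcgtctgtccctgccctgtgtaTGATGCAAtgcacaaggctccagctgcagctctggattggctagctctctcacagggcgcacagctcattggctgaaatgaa

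Depth ran from 16.7 to 22.2 M (mega) counts per GFP library and from 10.5 to 22.1 M counts per EIF2A library. All 10 beta cell markers were present, among them Ins2 with at least 18397 counts-per-million (CPM) in every library. CPM are scaled throughout by TMM, the trimmed mean of M values. The alpha cell gene Gcg was present too, at 138 to 921 CPM. Eif2a, the gene on the plasmid, checks the labels: in replicates 2 to 4 it stood at 134 to 209 CPM in EIF2A libraries and at 77.8 to 102 CPM in GFP libraries. In replicate 1 it was the other way round, at 80.3, 96.9 and 104 CPM in the libraries labelled EIF2A and at 269, 361 and 358 CPM in those labelled GFP, at 0, 1 and 3 h. Replicate 1 thus goes against its labels at all 3 times. Results of the members are therefore also given without it, as values or counts, where calls change. Single genes of neighbouring pathways are given with all libraries only. Between pairs of libraries of 1 group the chi-square per degree of freedom, which is near 1 for counting error alone, was 67.5 to 151 where replicate 1 was in the pair and 1.32 to 20.1 among replicates 2 to 4. The labels do not say whether replicates are separate cultures, so p-values measure only the spread between these libraries, which may be technical.

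After 3 h of thapsigargin the enzyme mRNAs were higher in both constructs. In GFP cells 9 of 10 members rose and none fell, against 18.4% of all genes tested that rose. In EIF2A cells 8 of 10 rose and none fell, against 19.6% of all genes. The median log2 fold change over the 10 members was 0.98 in GFP cells and 0.82 in EIF2A cells, while the median over all genes was near 0 (-0.0024 and -0.010). Both constructs are compared with their own 0 h libraries, with edgeR's quasi-likelihood test, Benjamini-Hochberg adjustment over all genes and a call at an adjusted p under 0.05. "Rose" and "fell" stand for such a call, and errors of fold changes are standard errors (SE) with n = 4 libraries per group.

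**Figure D1:**
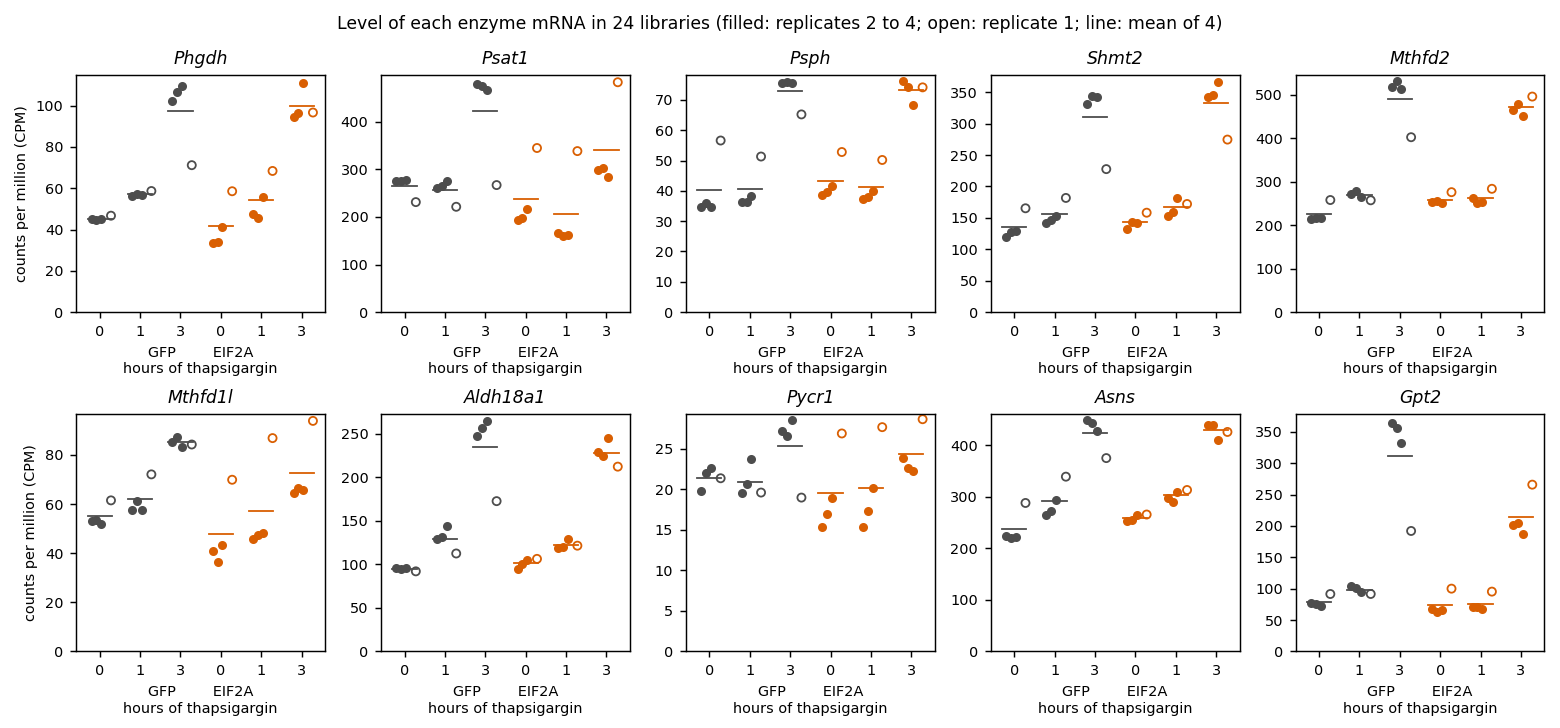
Level of each of the 10 enzyme mRNAs in all 24 libraries, in CPM on axes that start at 0, by hours of thapsigargin and construct (GFP grey, EIF2A orange). Filled points are replicates 2 to 4, open points replicate 1 and lines the mean of 4 libraries; Gpt2 at 3 h spans 192 to 363 CPM in GFP libraries against 72.7 to 91.5 CPM at 0 h.

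The serine pathway begins with Phgdh, phosphoglycerate dehydrogenase, on chromosome 3 at 98313170 to 98339990. Phgdh in GFP libraries stood at 46.7, 45.1, 44.7 and 44.9 CPM at 0 h in replicates 1 to 4 in that order, at 58.6, 56.1, 57.3 and 56.5 at 1 h and at 71.1, 102, 107 and 109.6 at 3 h. Phgdh in libraries labelled EIF2A stood at 58.5, 33.6, 33.9 and 41.1 CPM, at 68.3, 47.7, 45.6 and 55.5 and at 96.6, 94.3, 96.4 and 111 at those times. At 3 h every library of each construct lay above all 0 h libraries of that construct. The rise over 0 h was 1.10 ± 0.16 (log2, SE) in GFP cells (adjusted p 1.4e-05) and 1.25 ± 0.16 in EIF2A cells (adjusted p 3.0e-06), that is 2.15-fold and 2.38-fold. Phgdh also stood higher at 1 h than at 0 h in all 8 pairs of same-numbered libraries, by log2 0.22 to 0.51.

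Psat1, phosphoserine aminotransferase, takes the pathway's next step and lies on chromosome 19 at 15904678 to 15947337. Psat1 in GFP libraries stood at 231, 275, 275 and 279 CPM at 0 h, at 221, 261, 266 and 275 at 1 h and at 267, 480.1, 475 and 467 at 3 h. Psat1 in libraries labelled EIF2A stood at 345, 194, 198 and 216 CPM, at 338, 167, 159 and 161 and at 483, 298, 302 and 283 at those times. Replicate 1 was the lowest GFP library and the highest EIF2A library at each of the 3 times, and the 3 h and 0 h libraries overlapped in both constructs. Psat1 rose at 3 h in GFP cells, by 0.67 ± 0.24 (adjusted p 0.039), and its value in EIF2A cells was 0.52 ± 0.24 (adjusted p 0.11). The GFP call was lost when any one of GFP 0 h replicates 1 to 4 or GFP 3 h replicates 2 to 4, or replicate 2, 3 or 4 of all groups, was left out, with log2 values of 0.60 to 0.70, and with no filter on low counts (0.67, adjusted p 0.053). Without replicate 1 the values were 0.78 ± 0.05 (adjusted p 4.3e-11) and 0.54 ± 0.05 (adjusted p 8.8e-09), and with the replicate series as a block 0.65 ± 0.08 (adjusted p 7.0e-07) and 0.53 ± 0.08 (adjusted p 1.2e-05). Leaving out EIF2A 0 h replicate 1 alone gave 0.75 in EIF2A cells (adjusted p 0.020). At 1 h Psat1 was below its 0 h partner in all 8 pairs of same-numbered libraries, by log2 -0.42 to -0.017, the only member for which this was so.

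Psph, phosphoserine phosphatase, ends the pathway and lies on chromosome 5 at 129765558 to 129787449. Psph in GFP libraries stood at 56.6, 34.7, 35.9 and 34.6 CPM at 0 h, at 51.3, 36.3, 36.2 and 38.5 at 1 h and at 65.2, 75.6, 75.9 and 75.6 at 3 h. Psph in libraries labelled EIF2A stood at 52.8, 38.7, 39.5 and 41.6 CPM, at 50.2, 37.3, 37.8 and 39.9 and at 74.1, 76.3, 74.3 and 68.4 at those times. Replicate 1 was the highest library at 0 and 1 h in both constructs and the lowest GFP library at 3 h. The rise at 3 h was 0.85 ± 0.15 in GFP cells (adjusted p 0.00017) and 0.76 ± 0.15 in EIF2A cells (adjusted p 0.00046). Psph shares 452 exonic bases with Cct6a, a chaperonin subunit gene on the opposite strand, and the strand setting of the counting is not stated in the labels, so reads of the 2 genes may be mixed.

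Shmt2, mitochondrial serine hydroxymethyltransferase, opens the one-carbon branch and lies on chromosome 10 at 127517123 to 127522444. Shmt2 in GFP libraries stood at 165, 119, 127 and 129 CPM at 0 h, at 182, 142, 147 and 152 at 1 h and at 228, 332, 344 and 342 at 3 h. Shmt2 in libraries labelled EIF2A stood at 158, 132, 143 and 142 CPM, at 172, 153, 159.6 and 182 and at 275, 343, 346 and 366 at those times. All 3 h libraries were above all 0 h libraries of the same construct. The rise was 1.20 ± 0.13 in GFP cells (adjusted p 5.2e-07) and 1.21 ± 0.13 in EIF2A cells (adjusted p 4.1e-07). Shmt2 shares 32 exonic bases with Ndufa4l2 on the opposite strand.

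Mthfd2 encodes the mitochondrial methylene-tetrahydrofolate dehydrogenase and cyclohydrolase and lies on chromosome 6 at 83305691 to 83325908. Mthfd2 in GFP libraries stood at 258, 213, 217 and 217 CPM at 0 h, at 257, 273, 278 and 265 at 1 h and at 402, 518, 530.3 and 512 at 3 h. Mthfd2 in libraries labelled EIF2A stood at 276, 252, 255 and 251 CPM, at 284, 263, 251 and 252 and at 495, 465, 478 and 451 at those times. The 3 h libraries stood apart from the 0 h libraries in both constructs, and in GFP cells replicate 1 was the lowest at 3 h. The rise was 1.12 ± 0.08 in GFP cells (adjusted p 5.8e-09) and 0.87 ± 0.08 in EIF2A cells (adjusted p 9.3e-08).

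Mthfd1l, the mitochondrial formyl-tetrahydrofolate synthetase that releases formate, lies on chromosome 10 at 3973118 to 4167081. Mthfd1l in GFP libraries stood at 61.5, 53.1, 53.7 and 51.8 CPM at 0 h, at 72.1, 57.4, 61.4 and 57.8 at 1 h and at 84.3, 85.5, 87.3 and 83.4 at 3 h. Mthfd1l in libraries labelled EIF2A stood at 69.9, 41.0, 36.5 and 43.3 CPM, at 86.9, 45.8, 47.5 and 48.1 and at 93.9, 64.5, 66.7 and 65.5 at those times. GFP libraries at 3 h were all above those at 0 h, while in EIF2A cells replicate 1 at 0 h lay above replicates 2 to 4 at 3 h. The rise was 0.63 ± 0.19 in GFP cells (adjusted p 0.016) and 0.60 ± 0.20 in EIF2A cells (adjusted p 0.020). The GFP call was lost without replicate 2, 3 or 4 of all groups (log2 0.60 to 0.61), and the EIF2A call without replicate 2, 3 or 4 of all groups (0.54 to 0.61), or without 1 of EIF2A 0 h replicates 2 to 4 or EIF2A 3 h replicate 1 (0.45 to 0.56). Without replicate 1 the values were 0.69 ± 0.05 and 0.70 ± 0.06.

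Aldh18a1, pyrroline-5-carboxylate synthase, makes the first committed step from glutamate to proline and lies on chromosome 19 at 40550257 to 40588463. Aldh18a1 in GFP libraries stood at 92.0, 95.7, 94.5 and 95.5 CPM at 0 h, at 112, 129, 132 and 144 at 1 h and at 173, 248, 256 and 264 at 3 h. Aldh18a1 in libraries labelled EIF2A stood at 106, 95.1, 100.3 and 105 CPM, at 121, 119, 120.0 and 129 and at 212, 229, 224 and 246 at those times. The 3 times did not overlap in either construct, each later time lying higher. The rise at 3 h was 1.32 ± 0.10 in GFP cells (adjusted p 8.4e-09) and 1.16 ± 0.10 in EIF2A cells (adjusted p 3.2e-08).

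Pycr1, the mitochondrial pyrroline-5-carboxylate reductase that completes proline, was the member with the smallest change and lies on chromosome 11 at 120635712 to 120643769. Pycr1 in GFP libraries stood at 21.3, 19.7, 21.9 and 22.6 CPM at 0 h, at 19.6, 19.5, 20.7 and 23.7 at 1 h and at 19.0, 27.1, 26.5 and 28.5 at 3 h. Pycr1 in libraries labelled EIF2A stood at 26.9, 15.4, 16.9 and 18.9 CPM, at 27.6, 15.4, 17.3 and 20.1 and at 28.6, 23.8, 22.6 and 22.2 at those times. The libraries of the 3 times overlapped in both constructs, and replicate 1 was the lowest GFP library at 3 h and the highest EIF2A library at all 3 times. The 3 h values were 0.24 ± 0.17 in GFP cells (adjusted p 0.32) and 0.32 ± 0.18 in EIF2A cells (adjusted p 0.18). Without replicate 1 they were 0.35 ± 0.09 (adjusted p 0.0020) and 0.43 ± 0.10 (adjusted p 0.0011), and with the replicate block 0.24 ± 0.09 (adjusted p 0.017) and 0.33 ± 0.09 (adjusted p 0.0025). Without EIF2A 0 h replicate 1 alone the EIF2A value was 0.51 (adjusted p 0.021). Pycr1 was thus called in both constructs once replicate 1 was left out or blocked, at a smaller log2 value than the other 9 members had.

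Asns, asparagine synthetase, lies on chromosome 6 at 7675169 to 7693254 and carries the element shown above. Asns in GFP libraries stood at 288, 224, 219 and 222 CPM at 0 h, at 339, 263, 272 and 294 at 1 h and at 375, 449, 442 and 428 at 3 h. Asns in libraries labelled EIF2A stood at 265, 254, 255 and 264 CPM, at 313, 297, 290.2 and 309 and at 425, 439, 439 and 409 at those times. Libraries at 3 h were all above those at 0 h. The rise was 0.83 ± 0.09 in GFP cells (adjusted p 5.2e-07) and 0.72 ± 0.09 in EIF2A cells (adjusted p 2.3e-06).

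Gpt2, the mitochondrial alanine aminotransferase, had the largest log2 fold change of the 10 members at 3 h in both constructs and lies on chromosome 8 at 85492576 to 85527560. Gpt2 in GFP libraries stood at 91.5, 77.1, 76.4 and 72.7 CPM at 0 h, at 91.6, 105, 100.4 and 93.9 at 1 h and at 192, 363, 356 and 332 at 3 h. Gpt2 in libraries labelled EIF2A stood at 100.0, 67.8, 62.8 and 65.8 CPM, at 95.3, 70.6, 70.7 and 68.0 and at 266, 202, 204 and 187 at those times. All libraries at 3 h were above all at 0 and 1 h. The rise was 1.97 ± 0.18 in GFP cells (3.91-fold, adjusted p 7.9e-08) and 1.53 ± 0.18 in EIF2A cells (2.89-fold, adjusted p 1.3e-06). In replicates 2 to 4 Gpt2 averaged 350.4 ± 16.5 CPM (SD, n = 3) in GFP cells at 3 h and 197 ± 9.23 CPM in EIF2A cells.

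Without replicate 1 all 10 members rose at 3 h in both constructs, against 32.2% of genes in GFP cells and 31.2% in EIF2A cells. The replicate block gave the same counts, against 33.6% and 32.9%. Groups did not overlap for 8 members in GFP cells, all but Psat1 and Pycr1, against 21.1% of all genes. In EIF2A cells they did not overlap for 7, Mthfd1l being the further exception, against 15.1% of all genes. Scaled by library totals, 9 and 8 members still rose, with medians of 1.11 and 0.97. That scaling moved the median of all genes to 0.12 in GFP and 0.15 in EIF2A cells, and the genes higher and lower from 2538 and 2005 to 3361 and 1345 in GFP cells and from 2702 and 2283 to 3813 and 1335 in EIF2A cells. The summed levels of several marker lists were lower at 3 h. That of beta cell markers was 37580 to 62509 CPM in GFP libraries at 3 h against 73034 to 105895 at 0 h, and 52891 to 61683 against 84111 to 109227 in EIF2A libraries, and Ins2 fell by 0.98 and by 0.94 on the log2 scale (adjusted p 0.00080 and 0.0010). The alpha markers summed to 862 to 983 CPM at 3 h against 1425 to 1797 at 0 h in GFP libraries and to 625 to 1741 against 1371 to 2469 in EIF2A libraries. The macrophage markers summed to 19.8 to 46.8 CPM against 38.7 to 68.5 in GFP libraries and to 9.49 to 55.2 against 28.2 to 97.4 in EIF2A libraries. In bulk libraries fewer cells of a type and less RNA per cell cannot be told apart, and the part of these shifts in the members' values was not tested beyond the change of scaling.

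Most of the change came between 1 and 3 h. At 1 h 2 members rose in GFP cells, Aldh18a1 by 0.46 ± 0.10 (adjusted p 0.0069) and Asns by 0.29 ± 0.09 (adjusted p 0.045), and none fell, against 5.78% of all genes higher and 2.39% lower. In EIF2A cells no member was called at 1 h, against 6.55% of all genes higher and 3.94% lower. The median log2 value over the members at 1 h was 0.23 in GFP and 0.13 in EIF2A cells. Phgdh, Shmt2, Mthfd1l, Aldh18a1 and Asns stood higher at 1 h in all 8 pairs of same-numbered libraries, Aldh18a1 by 0.19 to 0.60 and Asns by 0.19 to 0.41. The share of all genes that did so was not counted, so this is a description. The GFP count at 1 h was 1, with Asns lost, without 1 of GFP 0 h replicates 2 to 4 or GFP 1 h replicates 1, 3 and 4. It was 0 without replicate 2, 3 or 4 of all groups, against 0.755%, 0.616% and 1.85% of all genes called higher. DESeq2 called 3 members in GFP cells, Mthfd2 in addition at 0.23 (adjusted p 0.026), against 7.01% of all genes higher, and none in EIF2A cells, against 8.01% higher and 5.97% lower. Mthfd2 was also called in GFP cells without GFP 0 h replicate 1 (0.31, adjusted p 0.022). Without EIF2A 0 h replicate 1, Phgdh alone was called in EIF2A cells, at 0.59 (adjusted p 0.0078).

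The early calls depended on how replicate 1 was treated. With the replicate block 5 members rose at 1 h in GFP cells, Phgdh, Mthfd2, Mthfd1l, Aldh18a1 and Asns, against 22.9% of all genes higher. Without replicate 1 Shmt2 and Gpt2 rose as well, 7 in all, against 21.2%. In EIF2A cells the block gave 4 members higher (Phgdh, Mthfd1l, Aldh18a1 and Asns) and Psat1 lower, against 21.9% and 23.3% of genes, and without replicate 1 Shmt2 joined those higher, against 20.2% and 21.8%. Psat1 was then lower by -0.32 ± 0.05 (adjusted p 3.2e-05), or -0.24 ± 0.08 (adjusted p 0.027) with the block. Gpt2, first at 3 h, stood without replicate 1 at 0.40 ± 0.05 at 1 h in GFP cells (adjusted p 1.1e-05) and at 0.09 ± 0.06 in EIF2A cells (adjusted p 0.23).

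From 1 to 3 h 7 members rose in GFP cells, against 5.49% of all genes, and 7 in EIF2A cells, against 8.28%. Gpt2 led again with 1.67 ± 0.18 (adjusted p 6.5e-06) and 1.49 ± 0.18 (adjusted p 2.1e-05), followed by Shmt2 with 1.00 ± 0.13 and 0.99 ± 0.13. Psat1, Mthfd1l and Pycr1 were the members not called, with 0.72 ± 0.24, 0.45 ± 0.19 and 0.28 ± 0.17 in GFP cells and 0.72 ± 0.24, 0.35 ± 0.19 and 0.27 ± 0.18 in EIF2A cells. Psat1 was called by DESeq2 in both constructs (adjusted p 0.033 and 0.024). It was called also without GFP 3 h replicate 1 (0.89), EIF2A 1 h replicate 1 (1.07) or EIF2A 3 h replicate 4 (0.81), and Mthfd1l without EIF2A 1 h replicate 1 (0.62). All 10 rose in both constructs with the block, against 25.2% of genes in GFP and 26.7% in EIF2A cells, and without replicate 1, against 21.0% and 25.5%. In GFP cells the count was 4 without replicate 2 or 3 of all groups, with Phgdh, Psph and Asns lost. That was against 0.835% and 0.645% of all genes called higher. Phgdh was lost without replicate 4 as well (adjusted p 0.086), where 1.58% of all genes were called higher. In EIF2A cells Psph and Asns were lost without replicate 3 of all groups (adjusted p 0.056 and 0.055), where 1.25% of all genes were called higher.

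**Figure D2:**
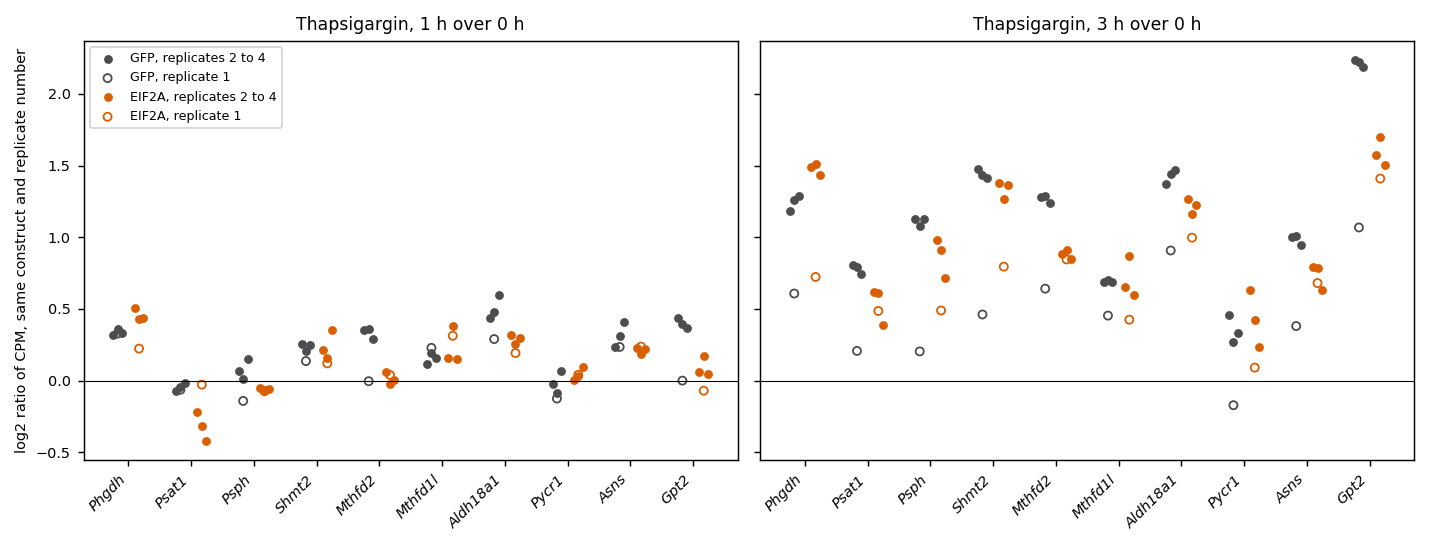
Log2 ratio of CPM at 1 h (left) and 3 h (right) over 0 h for each member, each point 1 pair of libraries with the same construct and replicate number (8 pairs; filled, replicates 2 to 4; open, replicate 1). At 3 h all 8 points lie above 0 for 9 members, and Pycr1 has 1 point below 0, GFP replicate 1 at -0.17.

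Pair by pair, 9 members were higher at 3 h than at 0 h in all 8 pairs of same-numbered libraries, a description without the share over all genes. Pycr1 was higher in 7 of 8, the exception being GFP replicate 1 at -0.17. In GFP cells replicate 1 gave the smallest 3 h ratio for every member. For Gpt2 the 8 ratios ran from 1.07 to 2.24, for Shmt2 from 0.46 to 1.47 and for Psph from 0.20 to 1.13. Members moved together across libraries as a description: over the 12 libraries of a construct, which share the time course and the spread of replicate 1, Pearson's r of log2 CPM between 2 members ran from 0.48 to 0.99 (median 0.90) in GFP cells and from 0.52 to 0.99 (median 0.89) in EIF2A cells, over 45 pairs each.

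Per length of transcript the members span a wide range, here as reads scaled to length and depth (RPKM) from the exonic length of each gene. In GFP cells at 0 h Asns stood highest at 87.1 RPKM, then Mthfd2 at 64.9, Psat1 at 62.3, Shmt2 at 43.5, Aldh18a1 at 23.2, Phgdh at 18.2, Gpt2 at 14.1, Mthfd1l at 12.4, Psph at 9.34 and Pycr1 at 5.44. The libraries of Mthfd2 and Psat1, of Gpt2 and Mthfd1l, and of Mthfd1l and Psph overlapped in this order, and the other neighbours did not. At 3 h Asns (155 RPKM) and Mthfd2 (141), whose libraries overlapped, were still first and Pycr1 (6.42) last. Gpt2 had moved to 55.1 RPKM, next to Aldh18a1 at 57.7 and above Phgdh at 39.2, though the libraries of these neighbours overlapped. In EIF2A cells Asns was first and Pycr1 last at all 3 times too, at 157 and 6.18 RPKM at 3 h.

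**Figure D3:**
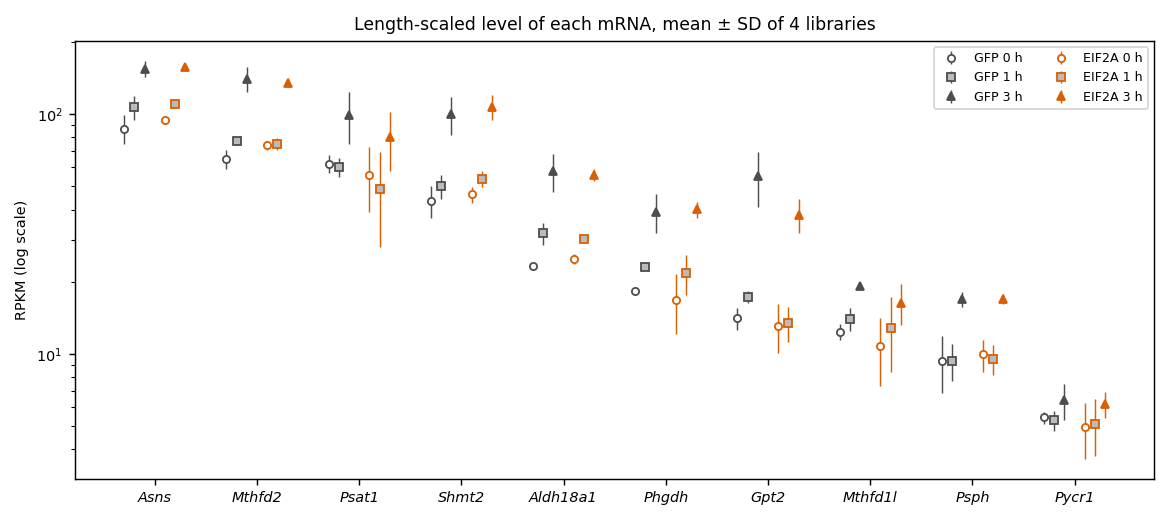
Length-scaled level (RPKM, log axis) of each member in the 6 groups, ordered by the GFP 0 h mean; points are means and bars the SD of 4 libraries, GFP grey and EIF2A orange, circles 0 h, squares 1 h and triangles 3 h. Asns lies highest and Pycr1 lowest in all 6 groups, and Gpt2 moves from 14.1 to 55.1 RPKM in GFP cells.

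Upstream of these enzymes, Atf4 mRNA rose in both constructs, by 0.59 ± 0.10 at 1 h and 0.81 ± 0.10 at 3 h in GFP cells (adjusted p 0.0010 and 3.7e-06) and by 0.49 ± 0.10 and 0.65 ± 0.10 in EIF2A cells (adjusted p 0.0035 and 3.7e-05). Ddit3, the ATF4 target that encodes CHOP, rose by 2.03 ± 0.28 and 1.70 ± 0.28 at 3 h (adjusted p 9.4e-06 and 5.1e-05), and Trib3, a pseudokinase target of both factors, by 2.90 ± 0.34 and 2.78 ± 0.34 (adjusted p 1.4e-06 and 1.8e-06). All these values include replicate 1. Pair by pair, Atf4 rose at 3 h by 0.86 to 0.91 in GFP and 0.39 to 0.58 in EIF2A replicates 2 to 4. In replicate 1 it rose by 0.60 and 1.19. At 0 h the log2 ratio of EIF2A to GFP libraries was already 1.00 to 1.27 for Ddit3 and 1.10 to 1.28 for Trib3 in replicates 2 to 4. In replicate 1 these ratios were -0.86 and -1.35. These are mRNA levels, and ATF4 protein was not measured.

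The surrounding pathways moved less uniformly. Of 67 gene symbols in 6 lists of these pathways, 66 are in the table and 60 were tested. The symbol not in it is Pycr3, a gene that the table holds under its earlier symbol Pycrl. At 3 h 15 rose and 6 fell in GFP cells, against 18.4% of all genes higher and 14.6% lower, and 13 rose and 8 fell in EIF2A cells, against 19.6% and 16.6%. Their median log2 value was 0.047 in GFP and 0.072 in EIF2A cells. Without replicate 1, 24 rose and 13 fell in GFP cells and 20 and 16 in EIF2A cells, against 32.2% and 30.8% and 31.2% and 31.4% of all genes, and the replicate block gave 24 and 13, and 22 and 17, against 33.6% and 33.5% and 32.9% and 33.3%. At 1 h 4 rose and 1 fell in GFP cells, against 5.78% and 2.39% of all genes, and 5 and 1 in EIF2A cells, against 6.55% and 3.94%. With the block these were 20 and 7, against 22.9% and 21.6%, and 19 and 10, against 21.9% and 23.3%.

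**Figure D4:**
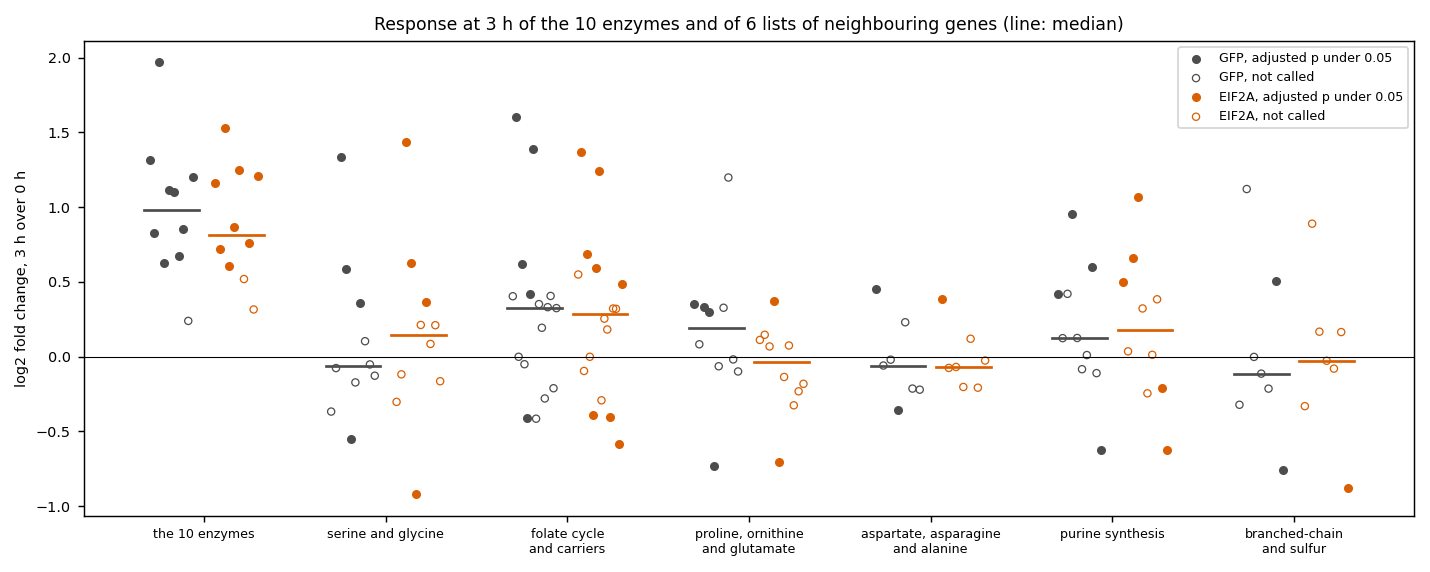
Log2 fold change at 3 h over 0 h of the 10 enzymes and of the tested genes of 6 lists of neighbouring pathways, GFP grey and EIF2A orange; filled points passed an adjusted p under 0.05 and lines are medians. The enzymes' medians are 0.98 and 0.82, while the medians of the 6 lists lie between -0.11 and 0.33.

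Among serine and glycine genes 3 of 10 rose and 1 fell in each construct. Cth, the cystathionine lyase that makes cysteine with sulfur from methionine, rose by 1.33 ± 0.29 in GFP and 1.44 ± 0.30 in EIF2A cells, and Dld by 0.58 ± 0.18 and 0.62 ± 0.18. Shmt1, the cytosolic counterpart of Shmt2, rose by 0.36 ± 0.09 and 0.36 ± 0.10. Gcsh, the lipoyl carrier of the glycine cleavage system, fell by 0.55 and by 0.92 on the log2 scale (SE 0.09 each). Gldc and Sds had too few counts to be tested.

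In the folate cycle 4 of 16 rose and 1 fell with GFP, and 5 rose and 3 fell with EIF2A. Aldh1l2, the mitochondrial enzyme that oxidises the formyl unit, rose by 1.60 ± 0.29 and 1.37 ± 0.29. Fpgs, which adds glutamate tails to folates, rose by 0.62 ± 0.11 and 0.69 ± 0.11, and the cytosolic Mthfd1 by 0.42 ± 0.16 and 0.60 ± 0.16. Mtfmt, which formylates the mitochondrial initiator tRNA, fell by 0.41 and by 0.39 on the log2 scale. Mthfd2l and Ftcd had too few counts to be tested.

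Neighbours of proline synthesis included Glud1, glutamate dehydrogenase, which rose by 0.30 ± 0.06 and 0.37 ± 0.06, and Glul, glutamine synthetase, which fell by 0.73 and by 0.70 on the log2 scale. Aldh4a1, which runs proline breakdown to glutamate, rose by 0.36 ± 0.11 in GFP cells and stood at 0.11 ± 0.11 in EIF2A cells. Pycrl, a reductase related to Pycr1, was not called (-0.10 ± 0.13 and -0.18 ± 0.13). With GFP 3 of 10 on this list rose and 1 fell, and with EIF2A 1 rose and 1 fell.

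Of 7 genes around aspartate, asparagine and alanine, Adss, an adenylosuccinate synthase, rose in both constructs (0.45 ± 0.10 and 0.39 ± 0.10), and Asrgl1, an asparaginase, fell by 0.36 on the log2 scale in GFP cells (adjusted p 0.010) and stood at -0.20 ± 0.10 in EIF2A cells. The cytosolic alanine aminotransferase Gpt, counterpart of Gpt2, was not called, with -0.22 ± 0.26 and -0.03 ± 0.26. Aspg and Ass1 had too few counts to be tested. In purine synthesis, which consumes formate, 3 of 10 genes rose in each construct, with Gmps at 0.96 ± 0.10 and 1.07 ± 0.10 and Adsl at 0.42 ± 0.14 and 0.50 ± 0.14, and Prps2 fell by 0.62 in both. Of 7 branched-chain and sulfur genes, Mat2a, the S-adenosylmethionine synthetase, fell by 0.76 and by 0.88 on the log2 scale, and Dbt, a part of the branched-chain keto acid dehydrogenase, rose by 0.50 ± 0.15 in GFP cells and stood at 0.16 ± 0.15 in EIF2A cells. For genes called in 1 construct alone, no gene of the table was called in the comparison of responses with all libraries. Values and calls of single genes in these lists include replicate 1, and their calls may differ without it.

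The genes whose pattern was most like the members' own, by Pearson's r with the mean scaled log2 CPM of the 10 over the 12 libraries of each construct, were taken from 10718 other genes of at least 5 CPM. Aldh1l2 came first (r 0.98 in GFP and 0.97 in EIF2A cells), followed by the cystine transporter gene Slc7a11 (0.98 and 0.97), Mtbp (0.97 and 0.96), Eif1ad (0.96 and 0.97), the leucine transporter gene Slc7a5 (0.96 and 0.97) and the clock gene Arntl (0.97 and 0.96). At 3 h Slc7a11 rose by 2.79 in GFP and 2.74 in EIF2A cells and Slc7a5 by 1.04 and 0.82. Of the members themselves, Gpt2 was closest to this mean (0.99 and 0.98) and Pycr1 farthest (0.75 and 0.79), each being part of the mean it is set against.

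The other question of the design is whether EIF2A changes these levels. With all libraries as labelled, no member was called between the constructs at 0, 1 or 3 h, against 0.0218%, 1.02% and 0% of all genes either way. Of all genes, 3006, 3901 and 2901 had an unadjusted p under 0.05, and DESeq2 called no member either, against 3.42%, 12.2% and 1.28% of all genes at 0, 1 and 3 h. The members farthest from 0 at 1 and 3 h were Gpt2, at -0.10 ± 0.18, -0.36 ± 0.18 and -0.54 ± 0.18 (adjusted p 0.74, 0.19 and 0.19), and Psat1, at -0.15 ± 0.24, -0.31 ± 0.24 and -0.31 ± 0.24 at 0, 1 and 3 h. Leaving out EIF2A 1 h replicate 1 alone gave calls for Gpt2 (-0.48, adjusted p 0.043) and Psat1 (-0.65, adjusted p 0.024) at 1 h, and leaving out EIF2A 3 h replicate 1 alone gave one for Gpt2 at 3 h (-0.66, adjusted p 0.024).

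Replicates 2 to 4 and replicate 1 gave opposite signs. At 0 h the ratio of EIF2A to GFP libraries with the same number had 1 sign in replicates 2 to 4 for 9 members, and replicate 1 had the opposite sign for 8 of these. At 1 h this held for 10 of 10, and at 3 h for 7 of 8. These counts describe the members only, since the share of all genes with such a reversal was not counted. For Psat1 at 3 h the ratios were log2 -0.69, -0.65 and -0.72 in replicates 2 to 4 and 0.86 in replicate 1. Gpt2 at 3 h gave -0.85, -0.80 and -0.83 against 0.47, and Eif2a itself gave 1.04, 0.97 and 0.85 against -1.78.

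**Figure D5:**
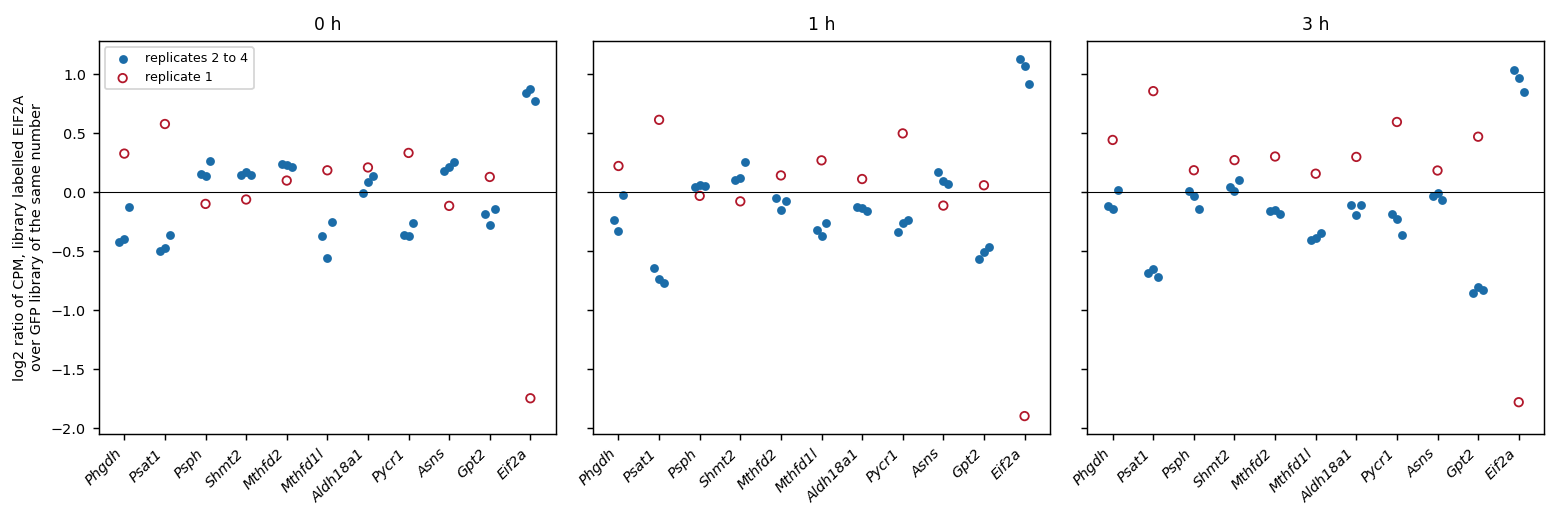
Log2 ratio of CPM, library labelled EIF2A over the GFP library of the same replicate number, for the 10 members and Eif2a at 0, 1 and 3 h (filled, replicates 2 to 4; open, replicate 1). Replicate 1 lies at -1.75 to -1.90 for Eif2a and at 0.58 to 0.86 for Psat1, across the 0 line from the other 3 replicates.

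Without replicate 1, 4 members were higher and 5 lower in EIF2A cells at 0 h, 1 higher and 6 lower at 1 h and 0 higher and 6 lower at 3 h. In that comparison 64.8%, 70.0% and 67.6% of all genes were called either way, so shares of this size are near the background. Psat1 was lower at all 3 times, by -0.45 ± 0.05, -0.72 ± 0.05 and -0.69 ± 0.05, and Gpt2 by -0.20 ± 0.06, -0.51 ± 0.06 and -0.83 ± 0.05. Mthfd1l stood at -0.39 ± 0.06, -0.32 ± 0.06 and -0.38 ± 0.05, and Pycr1 at -0.34 ± 0.10, -0.27 ± 0.10 and -0.26 ± 0.09. Psph, Shmt2, Mthfd2 and Asns were higher in EIF2A cells at 0 h, by 0.15 to 0.23. Among replicates 2 to 4 the constructs also differed in depth (10.5 to 16.6 M counts in EIF2A and 16.7 to 22.2 M in GFP libraries). They differed in the share of reads outside genes or fitting more than 1 (13.9% to 18.4% against 11.5% to 13.6%) and in cell type markers, those of beta cells included. Spp1, the one duct marker well above 0, stood at 21.9 to 36.5 CPM in EIF2A and 464 to 702 CPM in GFP libraries of replicates 2 to 4, and at 431 to 545 and 13.3 to 16.2 CPM in those of replicate 1. Gcg stood at 138 to 241 and 416 to 734 CPM in replicates 2 to 4 and at 680.1 to 921 and 174 to 272 CPM in replicate 1. Ttr, also an alpha marker, overlapped in replicates 2 to 4, at 484 to 1167 CPM in EIF2A and 506 to 1080 CPM in GFP libraries. Beta cell markers went both ways. In replicates 2 to 4 Ins1 stood at 11610 to 29012 and 3533 to 8217 CPM, and Pcsk1 at 174 to 354 and 382 to 658 CPM. In replicate 1 Ins1 stood at 4368 to 7266 and 8279 to 14510 CPM, and Pcsk1 at 439 to 585 and 261 to 406 CPM. Over all 24 libraries the 4 duct markers summed to 13.3 to 703 CPM, the 4 alpha markers to 625 to 2469 CPM and the 5 macrophage markers to 9.49 to 97.4 CPM. Those of acinar, delta, mesenchymal and endothelial cells summed to at most 6.38 CPM in any library, with the acinar markers Prss1 and Amy2a5 at 0 in every library. The part of these differences in the members' values was not tested.

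The response to thapsigargin was then compared between the constructs by an interaction term. No member was called at 1 or 3 h, and no gene of the table was (0% in both), with 72 and 146 genes at an unadjusted p under 0.05 and none called by DESeq2. The response of Gpt2 at 3 h differed by -0.44 ± 0.25, that of Mthfd2 by -0.25 ± 0.12 and that of Phgdh by 0.15 ± 0.22. Without replicate 1, 4 members responded less in EIF2A cells at 3 h, against 2.57% of all genes lower and 1.55% higher. They were Gpt2 at -0.63 ± 0.08 (adjusted p 7.1e-05), Mthfd2 at -0.39 ± 0.06 (adjusted p 0.00069), Asns at -0.25 ± 0.07 (adjusted p 0.047) and Psat1 at -0.24 ± 0.07 (adjusted p 0.049). At 1 h Mthfd2 alone was called without replicate 1, at -0.32 ± 0.06 (adjusted p 0.019), against 0.328% of all genes lower. With the replicate block no member was called in either comparison, against 0.00727% and 0.0145% of all genes.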

How the data were processed

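Polyadenylated RNA of 24 MIN6 libraries was sequenced from stranded mRNA kits, per the labels' protocols, and processed with bcl2fastq and STAR on mm10, per the submitters' processing notes. The authors deposited whole-number counts for each gene, with no normalization. Which counter, annotation, strand setting and tool versions were used is not given in the sources used here. Left out were 2 lines that name no gene, with 11.3% to 18.4% of reads. Groups and replicate numbers came from the sample titles.

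The test was edgeR 4.0.16 (R 4.3.3) with TMM scaling, a filter on low counts (minimum 10, total 15), robust quasi-likelihood fit of 6 group means over 24 libraries (18 residual degrees of freedom), 11 contrasts, Benjamini-Hochberg adjustment over 13761 genes. On simulated counts for GFP 3 h against 0 h (13668 genes, 200 changed), 28% of 1.5-fold and 75% of 2-fold changes were called, with 3 false calls. Alternatives were DESeq2 1.42.0, library totals, no filter, a replicate block and leaving out replicates or single libraries. Positions and exonic lengths came from GENCODE M21 (GRCm38, the build mm10). Without molecular identifiers, counting error understates the error.

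The block pairs times by replicate number within a construct. Same-numbered libraries of 1 construct deviated together from their group means across times (r 0.68 to 0.96 in every pair, 10908 genes). Differently numbered libraries among replicates 2 to 4 also deviated together (r 0.32 to 0.84, median 0.72, against a median of 0.80 for same-numbered ones). Those of replicate 1 and any other number deviated apart (r -0.90 to -0.67). The group means include replicate 1, whose distance alone gives r values of these signs, so they cannot decide whether numbers pair libraries. Constructs were not paired by number. Members and lists were chosen with earlier results of these data known. All members were named, and of other lists the called genes with the smallest p in each direction, up to 4 per list at 3 h. Some genes that fit this rule are not reported here. Pycrl and Gpt, outside it, were named after their values were seen, as were Spp1, Gcg, Ttr, Ins1 and Pcsk1 among the markers.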

Additional observations from a re-analysis of the deposited data

Results flagged for a closer look

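In 18 of 60 groups of 4 libraries, 6 for each of the 10 members, 1 library stood far from the other 3 by Dixon's test at the 95% level, which chance does in about 1 in 20 groups. In 17 of these 18 the library was replicate 1, the highest in 12 and the lowest in 5. The 60 groups are not independent, because the 10 members were read in the same libraries and moved together. The number flagged can therefore not be weighed against 1 in 20. The share of groups flagged over all genes was not counted.

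Psat1 stood apart in 5 groups. Its replicate 1 was low in GFP cells at 0 h (231.2 CPM) and 3 h (266.9 CPM) and high among libraries labelled EIF2A at 0 h (344.8 CPM), 1 h (338.3 CPM) and 3 h (482.9 CPM). Psph replicate 1 was high in GFP cells at 0 h (56.6 CPM) and 1 h (51.3 CPM) and low at 3 h (65.2 CPM). Mthfd2 replicate 1 was high at 0 h in GFP (257.7 CPM) and EIF2A (275.8 CPM) libraries and low in GFP cells at 3 h (402.1 CPM). Shmt2 replicate 1 was low in GFP cells at 3 h (227.7 CPM), and Asns replicate 1 was high in GFP cells at 0 h (287.7 CPM). Among libraries labelled EIF2A, replicate 1 of Mthfd1l was high at 1 h (86.9 CPM) and 3 h (93.9 CPM), and that of Gpt2 at 0 h (100.0 CPM) and 1 h (95.3 CPM). The remaining library was EIF2A 3 h replicate 4 for Phgdh (111.1 CPM). No difference of response between the constructs passed its test with all libraries.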

How the results depend on the processing

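No called log2 fold change of a member reversed under the alternatives run. Counts of members called moved by over 1.5 times in these cases: GFP 1 h against 0 h, 2 as reported, gave 1 without the filter on low counts and 5 with the replicate block, and EIF2A 1 h against 0 h, 0 as reported, gave 5 with the block. In the paired analysis, which uses the same-numbered libraries of a construct, the counts for 3 h against 0 h were 10 in both constructs and no call was lost. A block by number between constructs, which the numbers do not pair, called 0 members at each time, against 9.69%, 21.0% and 7.66% of all genes at 0, 1 and 3 h. With replicates or single libraries left out, counts ranged from 0 to 7 for GFP 1 h against 0 h, from 4 to 10 for GFP 3 h against 1 h, from 0 to 6 for EIF2A 1 h against 0 h, and from 0 to 9, 0 to 7 and 0 to 6 for EIF2A against GFP at 0, 1 and 3 h. The comparisons of responses ranged from 0 to 1 at 1 h and from 0 to 4 at 3 h. Shares of all genes called moved too when a whole replicate was left out. They ran from 0.659% to 39.4%, 0.877% to 42.2% and 1.01% to 42.0% for those 3 time comparisons. Between constructs they ran from 0% to 64.8%, 70.0% and 67.6% at 0, 1 and 3 h, and for responses from 0% to 0.816% and 4.12%. The highest share was always that without replicate 1. The cause was not tested. Of 110 fold changes, 107 kept their call with DESeq2, 108 with library totals, 108 without the filter and 93 with the block. The standard error of Psat1 at 3 h in GFP cells was 0.24 with and 0.05 without replicate 1 with the depth per library unchanged.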
